A study of Pan troglodytes with 217 samples.

Results

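Bone morphogenetic protein (BMP) signalling was described through 9 genes in single cells of chimpanzee blastoids at day 4. The genes were the ligands BMP2, BMP4 and BMP6, the receptors BMPR1A and BMPR2, the target genes ID1, ID2 and ID3, and BAMBI. They were taken by name as parts of the pathway, with earlier results of these data known, and all 9 were found, as 11 of the 33729 Ensembl identifiers in the count table. Blastoids are blastocyst-like structures grown from naive pluripotent stem cells, here chimpanzee induced pluripotent stem cells kept in PXGL-A6E medium. This medium contains activin, IL6 and EPZ, an inhibitor of EZH2, the enzyme of the Polycomb complex PRC2. The source cells were therefore kept under EZH2 inhibition. According to the study's methods, cell clusters were held in medium with the MEK inhibitor PD, the activin and nodal receptor inhibitor A83, lysophosphatidic acid and the ROCK inhibitor Y-27632. They were then moved to the same medium without PD and finally to plain N2B27. No BMP and no BMP inhibitor was named among these additions, although activin is part of PXGL-A6E. Most mural trophectoderm was cut away, cells were dissociated, and full-length cDNA of each cell was sequenced by SMART-seq2.

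BMP ligands are secreted dimers that bring type 1 receptors such as BMPR1A together with type 2 receptors such as BMPR2. The activated type 1 receptor phosphorylates SMAD1, SMAD5 and SMAD9, which enter the nucleus with SMAD4 and switch on target genes. Among the best known targets are the ID genes, whose proteins bind bHLH transcription factors and keep them off DNA, and BAMBI, a receptor-like protein without a kinase domain that dampens BMP, activin and TGF-beta signals. In the mammalian embryo BMP signals act between the epiblast and the extraembryonic tissues around it.

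Cells with a read on at least 8000 genes were used, and 24 cells with fewer were left out. The remaining cells had 1679888 to 25630392 reads each and formed 4 clusters, 1 epiblast-like with 50 cells, 1 hypoblast-like with 32 cells and a pair of trophectoderm-like (TE-like) clusters with 60 and 51 cells, which together are the TE-like class. The epiblast-like cells had 9 of 9 measured epiblast markers at 10 CPM (reads of a gene per 1000000 reads of the cell) or more, the hypoblast-like cells 9 of 10 hypoblast markers and the TE-like cells 11 of 12 trophectoderm markers. Epiblast markers were less restricted, since all 32 hypoblast-like cells and 83 TE-like cells had at least 3 of them at 10 CPM. At least 3 genes of the trophectoderm list were at that level in 25 hypoblast-like and 25 epiblast-like cells. Whether these cells are mixtures was not tested, and doublets were not called. Lists for amnion, for primitive streak or mesoderm and for extraembryonic mesoderm were met in this way by 0 cells, and their largest median summed level in a class was 18.8 CPM, for the amnion list in TE-like cells. Leaving the 9 genes and the wider pathway list out of the clustering put every cell in the same class. The labels name no blastoid, line or batch for a cell, so the cells make up a single sample. With no replicates, no test could be made, also because the clusters were built from these same values. Levels are CPM pooled over the cells of a class, and their 95% Poisson intervals cover counting error only. CPM does not take account of gene length, so levels were compared between classes for each gene and not between genes.

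The 3 ligands were not highest in the same class. BMP2 and BMP6 were highest in hypoblast-like cells and BMP4 in epiblast-like cells, and TE-like cells had little of any of them. All 32 hypoblast-like cells had at least 1 of the 3 at 10 CPM or more. None of the 3 reached that level in 93 TE-like cells (83.8%, exact 95% interval 75.6% to 90.1%) and 15 of 50 epiblast-like cells (17.9% to 44.6%).

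**Figure D1:**
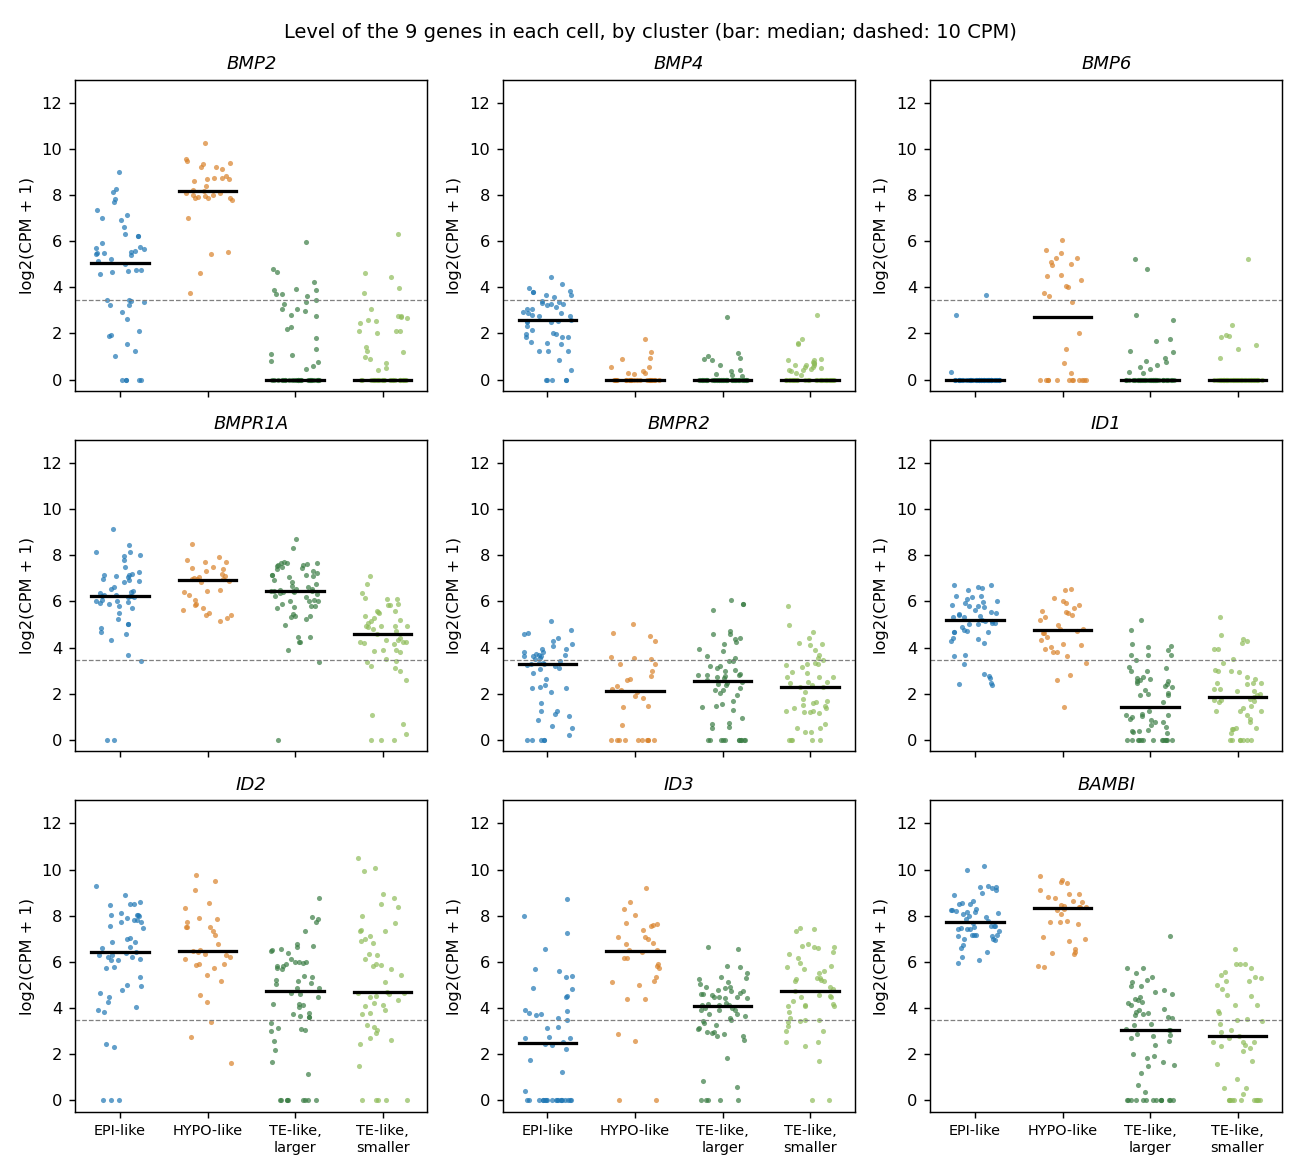
Level of the 9 genes in each cell of the 4 clusters, as log2(CPM + 1) on the vertical axis, with cells grouped by cluster on the horizontal axis (EPI-like for epiblast-like, HYPO-like for hypoblast-like). Each point is a cell, the bar is the median and the dashed line is 10 CPM. BMP2, ID1 and BAMBI lie low in both TE-like clusters, BMP4 has its median above 0 only in epiblast-like cells among the 4 clusters, and ID3 in epiblast-like cells spreads from 0 to 424 CPM.

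BMP2 (ENSPTRG00000013238), a ligand close in sequence to BMP4, ranged from 12.6 to 1236 CPM in hypoblast-like cells, with a median of 292 CPM. In epiblast-like cells it ranged from 0 to 511 CPM with a median of 32.5 CPM, and in TE-like cells from 0 to 78.6 CPM with a median of 0. The classes therefore followed the order hypoblast-like, epiblast-like, TE-like, and 28 of 32 hypoblast-like cells lay above the highest TE-like cell. Epiblast-like cells overlapped with both other classes, with 8 hypoblast-like cells above the highest epiblast-like cell and a read in 45 of 50 epiblast-like cells. Pooled levels were 365 CPM (361 to 368) in hypoblast-like, 61.9 CPM (60.9 to 62.98) in epiblast-like and 3.86 CPM (3.69 to 4.03) in TE-like cells. BMP2 was thus 5.89-fold higher in hypoblast-like than in epiblast-like cells and 94.5-fold higher than in TE-like cells. The larger and the smaller TE-like cluster were close, at 4.39 and 3.29 CPM. Without cells that had 3 or more markers of a second class, the log2 fold of the smaller against the larger was -1.68.

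BMP4 (ENSPTRG00000006358 and ENSPTRG00000051076, summed) is a ligand widely used to induce mesoderm and amnion from primed pluripotent cells. It ranged from 0 to 21.01 CPM in epiblast-like cells with a median of 4.91 CPM, and 45 of 50 of these cells had a read. In hypoblast-like cells 10 of 32 had a read and the highest cell had 2.41 CPM, while 34 TE-like cells (30.6%) had a read and the highest had 6.06 CPM. Of the epiblast-like cells, 37 lay above every hypoblast-like cell and 21 above every TE-like cell. The pooled level of 5.86 CPM (5.54 to 6.19) in epiblast-like cells was 30.1-fold that in hypoblast-like cells, at 0.194 CPM (0.126 to 0.287), and 18.7-fold that in TE-like cells, at 0.314 CPM (0.267 to 0.366). No hypoblast-like or TE-like cell had 10 CPM, which leaves shares of up to 10.9% and 3.27% within the exact 95% intervals. With 3 divided by the number of cells of the class as the limit, the shares are up to 9.38% and 2.70%. Each identifier alone was also highest in epiblast-like cells.

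BMP6 (ENSPTRG00000017705), a ligand of the same family with a known role in iron regulation by the liver, divided the hypoblast-like cells. It ranged there from 0 to 65.97 CPM with a median of 6.23 CPM, and 15 of 32 cells had 10 CPM or more (46.9%, exact 95% interval 29.1% to 65.3%) while 12 had no read. A read was found in 24 TE-like cells (21.6%) and in 3 of 50 epiblast-like cells, with highest values of 36.9 and 11.8 CPM. The ranges overlapped, and 5 hypoblast-like cells exceeded every TE-like cell. Pooled levels were 14.4 CPM (13.8 to 15.1) in hypoblast-like, 1.28 CPM (1.18 to 1.38) in TE-like and 0.516 CPM (0.424 to 0.621) in epiblast-like cells, or 27.9-fold and 11.3-fold more in hypoblast-like cells than in epiblast-like and TE-like cells. The 2.48-fold higher pooled level in TE-like than in epiblast-like cells rested on few cells, since 1 cell held 38.6% of the TE-like reads and another 78.4% of the epiblast-like reads. Both medians were 0, and leaving out cells with 3 or more markers of a second class turned the difference, to a log2 fold of -0.79.

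The ligands also differed within the hypoblast-like class. FOXA2, a transcription factor of mature hypoblast, was at 10 CPM or more in 14 of the 32 cells. BMP6 was at 10 CPM or more in 12 of these 14 cells and in 3 of the other 18, with pooled levels of 26.6 and 5.62 CPM. BMP2 was at 467 CPM in the cells with FOXA2, none below 232.5 CPM, and at 291 CPM in the cells without it, where it ranged from 12.6 to 1236 CPM. The FOXA2 cells thus were the side with more of both ligands, although the ranges overlapped. Over the 32 cells BMP2 and BMP6 had a Spearman correlation of 0.61, and of 0.68 over the 25 cells left after thinning to 2532312 reads. As in all such correlations here, the values of a cell share its library and its depth, so they are descriptions of these cells.

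Both receptors were found in every class, with BMPR1A (ENSPTRG00000002706), a type 1 receptor for BMP2 and BMP4, at 10 CPM or more in all 32 hypoblast-like cells, 47 of 50 epiblast-like cells and 97 TE-like cells (87.4%). Its range was 0 to 566 CPM in epiblast-like cells, 34.7 to 361 CPM in hypoblast-like cells and 0 to 413 CPM in TE-like cells, with medians of 75.6, 121.2 and 52.3 CPM. The pooled levels were 106.2 CPM (104.8 to 107.6), 113.9 CPM (112.1 to 115.8) and 64.8 CPM (64.1 to 65.5), all within 2-fold, and the ranges between the quartiles overlapped in all 3 classes. By medians of single cells the log2 fold of hypoblast-like against TE-like cells was 1.20. The TE-like level hid a difference between its clusters. BMPR1A was at 99.4 CPM (98.2 to 100.6) in the larger and at 28.1 CPM (27.5 to 28.8) in the smaller cluster, 3.54-fold lower, and 53 of 60 cells of the larger cluster lay above the median of the smaller. In the larger cluster BMPR1A was therefore close to the level of epiblast-like and hypoblast-like cells.

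BMPR2 (ENSPTRG00000029076), a type 2 receptor, was found in all classes. It ranged from 0 to 34.9 CPM in epiblast-like, 0 to 31.3 CPM in hypoblast-like and 0 to 65.8 CPM in TE-like cells, with medians of 8.64, 3.39 and 4.53 CPM. The pooled levels of 8.64 CPM (8.25 to 9.04), 6.14 CPM (5.72 to 6.58) and 8.77 CPM (8.51 to 9.03) were within 2-fold of each other, and the cells overlapped throughout. By medians of single cells the log2 fold of hypoblast-like against epiblast-like cells was -1.14. A read was found in 45, 22 and 95 cells of these classes.

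**Figure D2:**
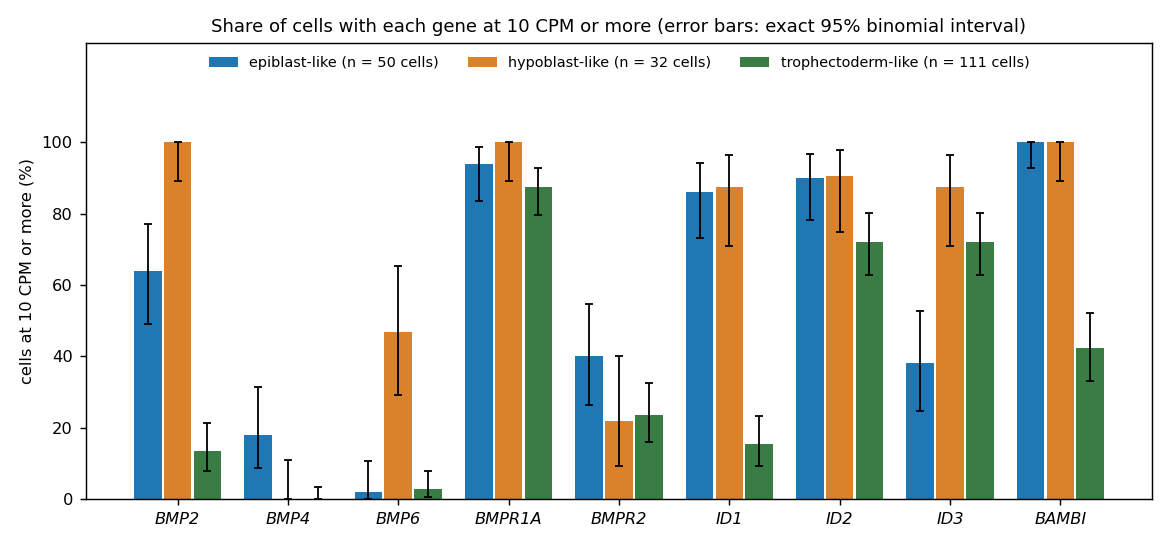
Share of cells with each gene at 10 CPM or more, in percent on the vertical axis, for the 9 genes on the horizontal axis and the 3 classes as coloured bars with exact 95% binomial intervals. BMP2 falls from 100% of hypoblast-like cells to 13.5% of TE-like cells, ID1 from 87.5% of hypoblast-like to 15.3% of TE-like cells, and BMPR1A stays above 85% in all 3 classes.

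The 3 ID genes did not share 1 pattern. ID1 followed the epiblast-like and hypoblast-like cells, ID2 was broad, and ID3 was highest in hypoblast-like cells. All 3 were at 10 CPM or more together in 22 of 32 hypoblast-like cells (exact 95% interval 49.99% to 83.9%), in 18 of 50 epiblast-like cells (22.9% to 50.8%) and in 10 TE-like cells (9.01%, 4.41% to 15.9%).

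ID1 (ENSPTRG00000013357 and ENSPTRG00000050334, summed) ranged from 4.15 to 104.97 CPM in epiblast-like cells and from 1.68 to 91.01 CPM in hypoblast-like cells, with medians of 35.5 and 25.9 CPM. In TE-like cells it ranged from 0 to 39.4 CPM with a median of 2.41 CPM, and 70 cells lay below the lowest epiblast-like cell. Epiblast-like and hypoblast-like cells overlapped widely, at 43.8 CPM (42.96 to 44.7) and 35.4 CPM (34.4 to 36.5), and TE-like cells stood apart at 4.78 CPM (4.59 to 4.97), 9.18-fold and 7.42-fold lower. The clusters of TE-like cells were close, at 4.31 and 5.27 CPM. Each of the 2 identifiers alone gave the same order, with 25.3, 20.3 and 2.36 CPM on the first and 18.6, 15.1 and 2.41 CPM on the second. Over the cells of all classes the gene most like ID1 by Spearman correlation, among 9537 identifiers with a read in at least 50% of cells, was POU5F1, which encodes the pluripotency factor OCT4, at 0.77.

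ID2 (ENSPTRG00000011632) was found in most cells of each class, epiblast-like, hypoblast-like and TE-like, with a read in 47, 32 and 97 cells. In that order it ranged from 0 to 626 CPM, from 2.08 to 881 CPM and from 0 to 1451 CPM, and the medians were 84.6, 86.4 and 25.1 CPM. The classes overlapped over most of their range, and TE-like cells had the lower median but the highest single cells. Pooled levels of 146.98 CPM (145.4 to 148.6), 167.5 CPM (165.2 to 169.7) and 99.9 CPM (99.03 to 100.8) were within 2-fold. By medians of single cells, TE-like cells were over 2-fold lower, at a log2 fold of -1.72 against epiblast-like cells, and -1.44 without the cells that had 3 markers of a second class. The smaller TE-like cluster had 154.3 CPM and the larger 48.5 CPM, 3.18-fold less, yet their medians were 25.1 and 26.1 CPM. The pooled difference came from the upper tail, since 5 cells of the smaller cluster exceeded every cell of the larger and 1 cell held 24.8% of the reads of the smaller. Trophectoderm-like cells with CGA, the alpha subunit of chorionic gonadotropin, at 10 CPM or more had ID2 at 230 CPM in 34 cells, against 42.4 CPM in the other 77, with medians of 63.1 and 17.3 CPM. CGA was itself among the leading genes of the smaller cluster, at 858 CPM, so this division and that of the clusters are not separate.

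ID3 (ENSPTRG00000000331) ranged from 0 to 593 CPM in hypoblast-like cells with a median of 88.04 CPM, from 0 to 424 CPM in epiblast-like cells with a median of 4.57 CPM and from 0 to 177.7 CPM in TE-like cells with a median of 18.99 CPM. Hypoblast-like cells were highest, and 28 of 32 lay above the TE-like median. The order of the other classes depended on how cells were summarised. Their pooled levels were close, at 34.9 CPM (34.1 to 35.7) in epiblast-like and 31.9 CPM (31.4 to 32.4) in TE-like cells, while 99 TE-like cells (89.2%) lay above the epiblast-like median. A single epiblast-like cell held 40.2% of the ID3 reads of its class, and 19 of 50 had no read. The pooled 124.07 CPM (122.1 to 126.01) of hypoblast-like cells was 3.56-fold the epiblast-like and 3.89-fold the TE-like level. Epiblast-like cells with ISL1, a LIM homeobox factor of the amnion list, at 10 CPM or more had ID3 at 10.1 CPM in 23 cells, none above 47.9 CPM, against 57.8 CPM in the other 27, with medians of 2.34 and 7.99 CPM.

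The ID genes were also compared with each other within classes. ID1 and ID2 had Spearman correlations of 0.61 over 50 epiblast-like cells, 0.46 over 32 hypoblast-like cells and 0.43 over the TE-like cells. ID2 and ID3 had 0.64, 0.55 and -0.05, and within the TE-like clusters 0.14 over 60 cells and -0.32 over 51 cells. The difference between these correlations was not tested. Ligands were compared with the ID genes in hypoblast-like and epiblast-like cells. BMP2 and ID2 had -0.40 in epiblast-like cells, BMP4 had 0.17 to 0.25 with the 3 ID genes there, and the highest value of a ligand with an ID gene was 0.45, for BMP6 and ID3 in hypoblast-like cells.

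**Figure D3:**
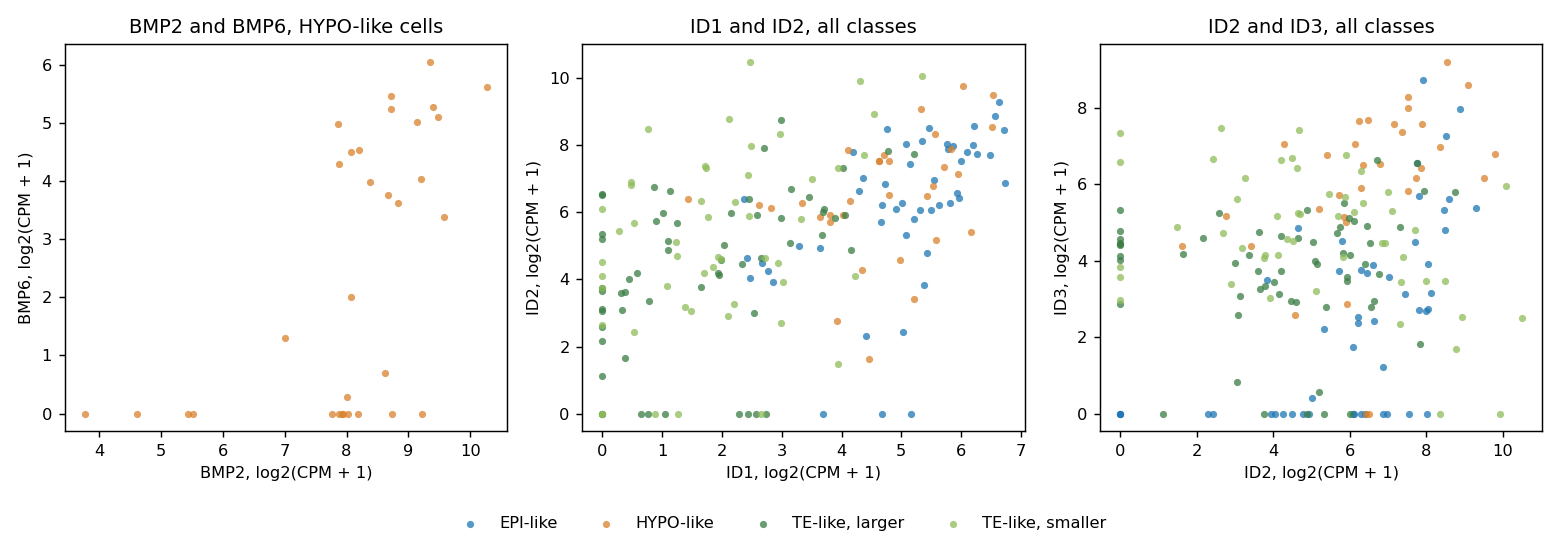
Pairs of genes in single cells, both axes as log2(CPM + 1), for BMP2 and BMP6 in 32 hypoblast-like cells (left) and for ID1 with ID2 and ID2 with ID3 in the cells of all classes (middle and right), each point a cell coloured by its cluster. BMP6 has no read in 12 cells, among them those with the least BMP2, and ID3 with ID2 forms a rising cloud in epiblast-like and hypoblast-like cells but not in TE-like cells.

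BAMBI (ENSPTRG00000002389) was high in epiblast-like and hypoblast-like cells and low in most TE-like cells. It ranged from 61.4 to 1148 CPM in epiblast-like cells with a median of 211.7 CPM, from 53.2 to 844 CPM in hypoblast-like cells with a median of 321 CPM, and from 0 to 138.3 CPM in TE-like cells with a median of 6.70 CPM. All but 2 TE-like cells lay below the lowest epiblast-like cell, and 86 (77.5%) had a read. Epiblast-like and hypoblast-like cells overlapped almost wholly, at 288 CPM (286 to 290) and 329 CPM (326 to 332). Trophectoderm-like cells were at 14.1 CPM (13.8 to 14.5), 20.4-fold and 23.3-fold lower, with 12.7 CPM in the larger and 15.6 CPM in the smaller cluster. Across the cells of all classes RRAD, a small GTPase, was the gene most like BAMBI, with a Spearman correlation of 0.81. Among epiblast-like cells BAMBI rose with BMPR1A, at a Spearman correlation of 0.48, which was 0.17 without the cells that had 3 markers of a second class, and over 32 hypoblast-like cells the value was 0.07.

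Differences of at least 2-fold in pooled level were counted over the 9 genes. Against epiblast-like cells, TE-like cells had BMP2, BMP4, ID1 and BAMBI lower (4 of 9) and BMP6 higher (1 of 9), where BMP6 turned and ID2 became lower without the cells that had 3 markers of a second class. Of all 15804 identifiers with a read in at least 20 cells, 22.7% were lower and 13.1% higher in that comparison. Hypoblast-like cells had BMP2, BMP6, ID1, ID3 and BAMBI higher than TE-like cells (5 of 9, where 15.1% of all identifiers were higher) and 0 of 9 lower (16.4%). Against epiblast-like cells, hypoblast-like cells had BMP2, BMP6 and ID3 higher (3 of 9, against 8.02%) and BMP4 lower (1 of 9, against 20.1%). The smaller TE-like cluster had BMP4, ID2 and ID3 higher than the larger (3 of 9, against 11.7%) and BMP6 and BMPR1A lower (2 of 9, against 11.2%), where BMP4 and BMP6 were at most at 1.72 CPM and ID3 lies at 2.00-fold. In thinned cells these counts were 1 higher and 1 lower, and by medians of single cells 0 higher and 1 lower, with ID2 at a log2 fold of -0.051. The median log2 fold of the 9 genes was -0.71 in TE-like against epiblast-like, 0.19 in hypoblast-like against epiblast-like and 1.96 in hypoblast-like against TE-like cells, beside -0.12, -0.20 and -0.05 over all identifiers. All these comparisons use the same 3 classes of cells, so they are not independent.

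**Figure D4:**
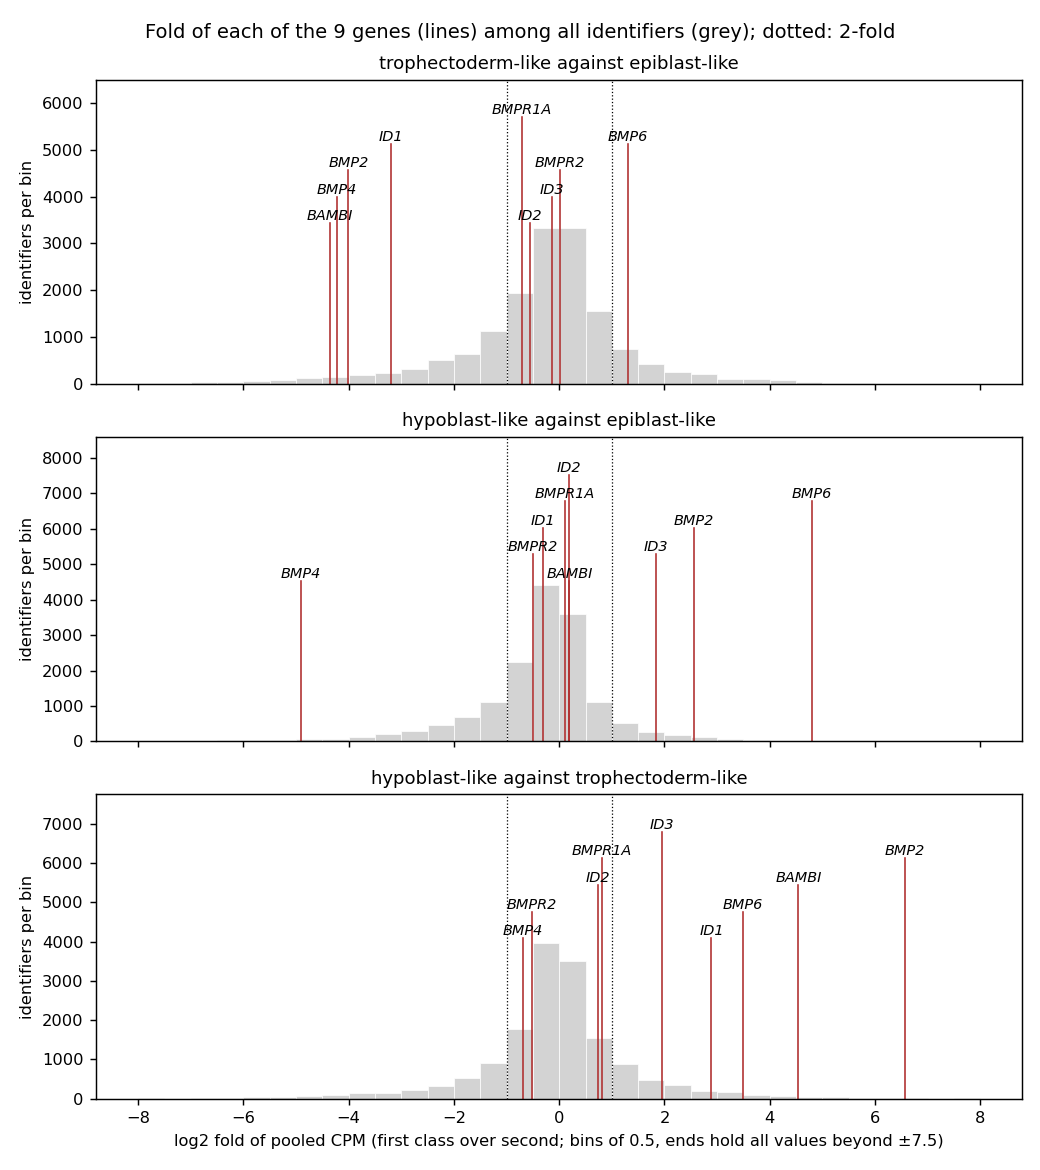
Log2 fold of pooled CPM on the horizontal axis, with the number of identifiers per bin of 0.5 on the vertical axis (grey, 15804 identifiers) and a labelled line for each of the 9 genes, in 3 comparisons of classes. The dotted lines mark 2-fold. BAMBI, BMP4, BMP2 and ID1 lie to the left in TE-like against epiblast-like cells, and BMP2 lies farthest to the right of the 9 in hypoblast-like against TE-like cells.

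The wider pathway list held 53 further genes, of which 51 had an identifier, 31 had a read in at least 20 cells and 20 reached 10 CPM in a class. Of the 31, 11 were at least 2-fold higher and 6 lower in TE-like than in epiblast-like cells, beside 13.1% and 22.7% of all identifiers. Hypoblast-like cells had 1 higher and 7 lower than epiblast-like cells (8.02% and 20.1% of all), and 6 higher and 12 lower than TE-like cells (15.1% and 16.4%). The smaller TE-like cluster had 10 higher and 4 lower than the larger (11.7% and 11.2%). The median log2 fold of these genes was 0.04, -0.22, -0.42 and 0.01 in the 4 comparisons.

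Other ligands added to the contrast between classes. GDF3, a ligand of the same superfamily that is known to restrain BMPs, was at 456 CPM in epiblast-like cells, with 10 CPM or more in 48 of 50. It was at 3.56 CPM in TE-like and 29.1 CPM in hypoblast-like cells. BMP7, another BMP, was highest in the smaller TE-like cluster. It was at 30.4 CPM there, with 10 CPM or more in 25 of 51 cells, and at 0.922 CPM in the larger cluster, 0.218 CPM in hypoblast-like cells and 0.790 CPM in epiblast-like cells. One cell held 33.6% of its reads in the smaller cluster, and the median of that cluster was 9.28 CPM.

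Among receptors and co-receptors, ACVR1, another type 1 BMP receptor, was even, at 35.1, 29.8 and 32.9 CPM in epiblast-like, hypoblast-like and TE-like cells. ACVR2A, a type 2 receptor shared with activin, was also even, at 13.8, 11.6 and 12.4 CPM. In contrast, ACVRL1, a type 1 receptor best known from endothelium, was at 25.3 CPM in the smaller and 0.199 CPM in the larger TE-like cluster, although 1 cell held 48.8% of its reads in the smaller. Its co-receptor ENG followed with 11.5 and 0.256 CPM. BMPR1B had under 20 cells with a read and entered no comparison.

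The signal transducers were present in every class. SMAD5 was at 251.7 CPM in TE-like cells, 113.4 CPM in hypoblast-like cells and 75.1 CPM in epiblast-like cells, and SMAD1 at 14.2, 10.3 and 14.7 CPM. SMAD9, itself a BMP target in many cells, was at 6.98 CPM in hypoblast-like cells, 5.34-fold the epiblast-like level, with a read in 16 of 32 cells. Of the 4 intracellular inhibitors, 1 was lower and 0 higher in TE-like than in epiblast-like cells, beside 22.7% and 13.1% of all identifiers. SMAD7, which blocks TGF-beta and BMP receptors, was at 6.63 and 6.47 CPM in these classes, and SMURF1, a ubiquitin ligase for SMADs, at 29.3 and 20.99 CPM. The one called was SMAD6, a feedback target that blocks BMP receptors. It was at 5.13 CPM in hypoblast-like and 4.42 CPM in epiblast-like cells, and 11.2-fold lower than the latter in TE-like cells, at 0.395 CPM. A read was found in 23 TE-like cells (20.7%) and in 39 of 50 epiblast-like cells.

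Of the 6 extracellular antagonists tested, 3 were higher and 3 lower in TE-like than in epiblast-like cells, beside the same 13.1% and 22.7%. CRIM1, a membrane protein that binds BMPs, was 2.91-fold higher in TE-like cells, at 90.9 CPM, and close in both TE-like clusters. FST encodes follistatin, a binder of activin and, more weakly, of BMPs. It was at 200.7 CPM in the smaller TE-like cluster, with 10 CPM or more in 45 of 51 cells, and at 9.68 CPM in the larger. One cell held 42.4% of these reads, and the median was 58.04 CPM. TWSG1, a modulator of BMP availability, was highest in epiblast-like cells at 51.3 CPM, against 14.5 CPM in hypoblast-like and 9.49 CPM in TE-like cells. The classical antagonist NOG had a read in 1 cell, a hypoblast-like one, and CHRD had a read in 9 hypoblast-like, 2 epiblast-like and 6 TE-like cells.

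Of the 4 other known targets tested, 3 were higher and 1, ID4, lower in TE-like than in epiblast-like cells (13.1% and 22.7% of all identifiers), and 0 of 4 differed by 2-fold in hypoblast-like against epiblast-like cells (8.02% higher and 20.1% lower over all identifiers). ID4, the remaining ID gene, was at 144.5 CPM in epiblast-like cells and 19.3 CPM in TE-like cells, with hypoblast-like cells between them at 82.1 CPM, in the order of ID1. MSX2, a homeobox target, ran the other way, at 484 CPM in TE-like cells against 76.3 and 72.04 CPM in epiblast-like and hypoblast-like cells, and was at 826 CPM in the smaller and 161.96 CPM in the larger cluster, with 96.99 CPM or more in every cell of the smaller. HAND1, a bHLH factor of trophoblast, was at 62.8 CPM in TE-like cells, 5.45-fold the epiblast-like level. It was higher in the larger cluster, at 96.0 CPM, than in the smaller, at 27.7 CPM. The ID partners TCF3, TCF4 and TCF12, bHLH factors that ID proteins bind, were within 2-fold in TE-like and hypoblast-like cells against epiblast-like cells. TCF4 was lower in the smaller than in the larger TE-like cluster, at 4.64 against 11.9 CPM.

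**Figure D5:**
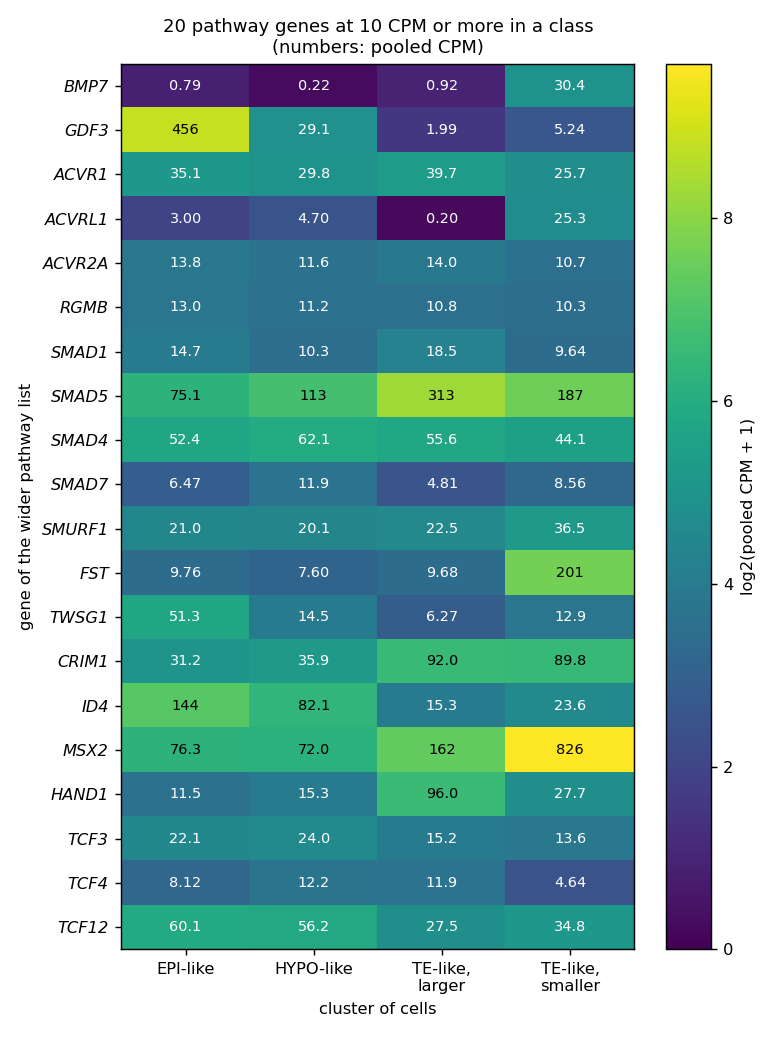
Pooled CPM of the 20 further pathway genes that reached 10 CPM in a class, with genes on the vertical axis and the 4 clusters of cells on the horizontal axis, coloured by log2(pooled CPM + 1) and printed in each cell of the grid. GDF3 stands out in epiblast-like cells, BMP7, ACVRL1 and FST in the smaller TE-like cluster, and MSX2 and SMAD5 in both TE-like clusters.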

How the data were processed

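Single cells of chimpanzee blastoids were sequenced by SMART-seq2, with 1 library per cell and no molecular identifiers. According to the study's methods, reads were trimmed with FastP, aligned to Pan_tro_3.0 with STAR and counted per gene by STAR, which drops reads that map to several genes. The submitters' processing notes name Trim Galore 0.6.6, STAR 2.7.7a and GRCh38 instead, without a role, while the identifiers are chimpanzee ones. The strand setting was not given in the sources used here. The authors deposited raw read counts for 217 cells and 33729 identifiers, not normalized. Intervals, and the limit of 3 counts set for folds, cover counting error only, since amplified copies of a molecule each count as reads.

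The 9 genes, the pathway list and the marker lists were chosen with earlier results of these data known. The genes named are the 9, the pathway genes at 10 CPM in a class, the closest genes by Spearman correlation, and cells divided by ISL1, FOXA2, CDX2 and CGA. SMAD6, SMAD9, ENG, BMPR1B, NOG and CHRD, below that level, were named after their values were seen. Symbols covered 18783 identifiers. BMP4 and ID1 have 2 identifiers each, which were summed. If these are copies of 1 gene in the assembly, reads that fit both were dropped, and the levels and shares of both genes are too low. BMP8A and GREM1 of the pathway list and TDGF1 of the epiblast list had no identifier. Gene positions and sequences were not used.

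Cells with under 4000 reads or 8000 genes with a read were left out. With Scanpy 1.11.5, log1p values of totals-scaled counts, for genes read in at least 20 cells, gave 50 principal components and a graph of 30 neighbours for Leiden clustering (leidenalg 0.10.2, resolution 1). This left 193 cells, 111 of them in the trophectoderm-like class. A class took its name from the marker list with the highest average z-score. CPM was computed from summed counts with exact Poisson 95% intervals, and shares with Clopper-Pearson intervals. A fold below the limit of 3 counts was computed from that limit, and a gene at or under it in both classes had no fold. Genes were called at 2-fold, with no test. For depth, cells were thinned to 2532312 reads, which left out 20 cells. In simulated trophectoderm-like against epiblast-like cells with 15804 identifiers, 99.0% of genes raised 4-fold and 100% of genes lowered 4-fold were called, and 5.48% of unchanged ones. The raised and lowered genes were drawn only from those above a minimum level over all cells. Their rates therefore do not cover low genes such as BMP4 and BMP6. Cells simulated from the class profiles returned to their class in 193 of 193 cases, in 3 clusters. Each was drawn from the profile of its own class, so this cannot show whether the classes are right. The division of trophectoderm-like cells into a larger and a smaller cluster was not simulated. Software was numpy 2.4.6, scipy 1.17.1, pandas 2.3.3 and matplotlib 3.10.9 in Python 3.11.15. Alternatives covered the cell filter, clustering, depth, scaling, summary and thresholds.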

Additional observations from a re-analysis of the deposited data

Results flagged for a closer look

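The 24 cells left out by the filter on detected genes enter no comparison above, and all 9 genes had more than 3 reads in them. BAMBI was at 181.3 CPM pooled over these cells, with 10 CPM or more in 16 of 24, BMPR1A at 71.7 CPM (16 of 24) and ID2 at 361 CPM (16 of 24). BMP2 was at 84.9 CPM with 10 CPM or more in 6 of the 24 cells, ID3 at 19.1 CPM (8 of 24), BMPR2 at 14.4 CPM (9 of 24) and ID1 at 7.58 CPM (8 of 24). BMP6 was at 1.64 CPM and BMP4 at 1.26 CPM, each with 1 cell at 10 CPM. These cells were given no class.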

How the results depend on the processing

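No paired analysis was possible because the cells are 1 sample without replicate groups. The classes were stable over the settings tried, with 98.96% (resolution 1.5) to 100% of shared cells in the same class. Of 565 folds of single genes recomputed under alternatives, 534 kept their call, 29 changed it and 2 turned. Levels moved more often, since 244 of 435 recomputed levels in CPM and 438 of 489 shares of cells stayed inside the interval of counting error. BMP6 in trophectoderm-like against epiblast-like cells turned to a log2 fold of -0.79 without cells that had 3 markers of a second class, and ID2 in the smaller against the larger trophectoderm-like cluster to -0.051 by medians of single cells. Without those cells 1 hypoblast-like cell remained, so its comparisons were not recomputed.

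Of the 9 genes, those higher in trophectoderm-like than in epiblast-like cells numbered 0 at 4-fold and without cells with 3 or 5 markers of a second class, the last chosen after seeing the data. Those lower in hypoblast-like than in trophectoderm-like cells numbered 1 (BMP4) with minimums of 7000 or 9000 genes, in thinned cells, without cells with 5 markers and with the more abundant identifier only, and 1 at 1.5-fold. Medians gave 2 lower in hypoblast-like than in epiblast-like cells, BMPR2 being added. ID2 became lower in trophectoderm-like than in epiblast-like cells at resolution 1.5 (log2 fold -1.26), without cells with 3 markers and by medians, and hypoblast-like cells exceeded trophectoderm-like cells in ID2 at resolution 1.5 (1.07), without cells with 5 markers (1.36) and by medians (1.74). In the smaller against the larger trophectoderm-like cluster, higher genes numbered 1 in thinned cells, 0 by medians and 0 at 4-fold, and lower genes 1 in thinned cells, by means or medians, and 0 at 4-fold.

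Of the pathway genes, 5 were higher by medians and 12 lower without the 20-cell minimum in trophectoderm-like against epiblast-like cells. In hypoblast-like against epiblast-like cells 2 were higher with 7000 genes, 6 without cells with 5 markers, 4 at 1.5-fold and 5 without the 20-cell minimum, and 11 were lower at resolution 1.5 or at 1.5-fold and 2 at 4-fold. Against trophectoderm-like cells 10 were higher at 1.5-fold and 13 without the minimum, and 7 lower by medians. In the smaller against the larger cluster 9 were lower without cells with 3 markers, 2 by medians, 8 at 1.5-fold, 2 at 4-fold and 11 without the minimum. The cause of these changes was not tested. The other 274 of 308 counts stayed within 1.5 times. Low counts limit BMP4, with 25 reads over all hypoblast-like cells.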

Other observations

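BMPR1A and BMPR2 were both at 10 CPM or more in 19 of 50 epiblast-like cells (exact 95% interval 24.7% to 52.8%), 7 of 32 hypoblast-like cells (9.28% to 39.97%) and 20 trophectoderm-like cells (18.02%, 11.4% to 26.4%). These shares depend on the cut, since BMPR2 lay just under it, at 8.64, 6.14 and 8.77 CPM pooled. A BMPR2 read was found in 45, 22 and 95 cells of these classes, so cells below the cut do not all lack the receptor. The median cell had 5 of the 9 genes at 10 CPM or more among epiblast-like, 6 among hypoblast-like and 3 among trophectoderm-like cells, and no cell had all 9. The share of all identifiers at that level per cell was not computed, so these counts have no background. CPM also does not take account of gene length, so the cut is not equal between genes.

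Trophectoderm-like cells with CDX2, a transcription factor of early trophectoderm, at 10 CPM or more had BMPR1A at 95.5 CPM in 40 cells, against 46.1 CPM in the other 71, and ID2 at 39.3 against 136.9 CPM. The medians were closer for ID2, at 15.99 against 35.7 CPM, and were 87.1 against 30.7 CPM for BMPR1A. In hypoblast-like cells BMPR1A was lower in the 14 cells with FOXA2 at 10 CPM, at 80.7 CPM, than in the other 18, at 137.8 CPM, and over these 32 cells BMPR1A and BMP6 had a Spearman correlation of -0.50. ID1 and ID4 were the genes most like ID2 over the cells of all classes, with 0.52 for the first ID1 identifier and 0.50 for ID4. For BMPR2 the closest gene reached 0.33.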
